A study of Mus musculus with 8 samples.

Results

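The genes described here are 10 that encode the contractile apparatus of myofibroblasts and smooth muscle: Acta2, Actg2, Tagln, Cnn1, Myh11, Mylk, Myl9, Tpm1, Tpm2 and Actn1. They were taken by symbol from a table of 52110 rows that carry a gene symbol. All 10 were present, each on 1 row, and all 10 passed the low-count filter that left 17360 genes for testing. The cells were primary mouse lung fibroblasts of the genotype given as WT, grown in medium with serum. They were either left unstimulated or given recombinant TWEAK, a TNF-family cytokine, at 10, 30 or 100 ng/ml, and RNA was collected at 48 hours. Each group held 2 libraries, replicates 1 and 2, and the labels do not say if these are separate cultures or mice. The p-values therefore rest on library-to-library spread, which may be technical. Age, sex and strain of the mice are not stated in the labels.

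In smooth muscle and in activated fibroblasts, actin filaments built partly from the smooth muscle actins slide over myosin II. Phosphorylation of the regulatory myosin light chain by myosin light chain kinase switches the motor on. Transgelin, calponin and tropomyosin sit along the filament, and alpha-actinin crosslinks it. Fibroblasts that gain these genes are called myofibroblasts, contract scar tissue and are a hallmark of lung fibrosis. The genes are classic targets of serum response factor (SRF), which binds the CArG box in their promoters together with myocardin-family coactivators, and of TGF-beta signalling.

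Total counts were 37345575 to 50896445 per library. On the first principal component of log2 CPM (CPM being counts scaled to a common library size by TMM), with 49.7% of the variance, the libraries labelled 100 ng/ml (-36.19 and -37.71) lay nearer the untreated ones (-67.56 and -66.54) than those labelled 30 (48.66 and 35.34) or 10 ng/ml (61.44 and 62.57). Doses are given as labelled throughout. The cells carried the fibroblast markers: all 10 of that list were above 1 CPM in every library, and their summed level ran from 11149 to 21671 CPM. Of 10 smooth muscle markers outside the contractile set, the defining coactivator Myocd, with Casq2 and Pln, stayed under 1 CPM in all libraries. The other 7 were detected, and the 10 summed to 327 and 321 CPM in untreated cells, with Npnt at 124 and 130 CPM and Smtn at 115 and 110 CPM.

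Acta2 and Myl9 are shown by sequence because their promoters carried the SRF element in some form. Entries for 7 of the 10 genes (Acta2, Cnn1, Mylk, Myl9, Tpm1, Tpm2 and Actn1) were found in the RefSeq promoter table (build GRCm38.p6). The 250 bases upstream of each start were searched for a strict CArG box and for a CArG-like element that allows 1 of its central A or T bases to be any base. The strict box was in 1.47% and the CArG-like element in 8.59% of 32851 promoters of that length, and the element reads the same on both strands. Acta2 held CArG-like elements at -84 to -75 and at -34 to -25 relative to the start, neither of them strict. Myl9 held a strict box at -161 to -152 and a further CArG-like element at -99 to -90. In the other 5 windows neither pattern was found, and other starts of these genes were not searched. The Mylk window (chr16:34784700-34784949) lies well inside the gene, which begins at 34745210. Of the Acta2 window 217 bases, and of the Myl9 window the last 44, lie in first exons of GENCODE M21 transcripts that start further upstream. Both Acta2 elements are inside that exon, and 30 bases around each are shown. For Myl9 the 206 bases outside exons are shown, which hold both of its elements. Capitals mark the CArG-like elements, the first of the Myl9 pair being the strict box, and the sequences are written 5′ to 3′ on the strand of the gene.
Acta2, minus strand, chr19:34255438-34255467: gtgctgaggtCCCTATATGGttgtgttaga
Acta2, minus strand, chr19:34255388-34255417: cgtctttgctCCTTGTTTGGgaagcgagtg
Myl9, plus strand, chr2:156775214-156775419: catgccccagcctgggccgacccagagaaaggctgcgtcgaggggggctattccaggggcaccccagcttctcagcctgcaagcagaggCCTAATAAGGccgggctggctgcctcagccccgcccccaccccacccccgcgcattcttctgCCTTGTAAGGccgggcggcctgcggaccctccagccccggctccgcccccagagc
A consensus NF-kB site, searched on both strands, was in 3.9% of the promoters, and among the 7 in that of Myl9 alone, at -195 to -186.

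Untreated fibroblasts already expressed the set. Scaled to exon length and library size (RPKM, from TMM-scaled counts and exon-union lengths), the level in untreated cells was highest for Acta2 (292 ± 11.0, SD, n = 2), the smooth muscle alpha-actin that defines the myofibroblast. Tagln followed at 166 ± 1.36 RPKM and Myl9 at 94.2 ± 2.53 RPKM. Actn1 (79.0 ± 1.38), Tpm1 (73.3 ± 0.937), Mylk (59.95 ± 0.0904), Tpm2 (52.4 ± 1.96) and Actg2 (24.7 ± 0.304 RPKM) came next. Cnn1 (8.07 ± 0.565) and Myh11 (3.53 ± 0.671 RPKM), markers of differentiated smooth muscle, were lowest. Each neighbouring pair in this order differed by more than its SDs. The order also depends on the exon-union lengths, whose error these SDs do not measure. At 10 ng/ml Actn1 (106 ± 2.51) and Tpm1 (85.5 ± 2.22) stood above Myl9 (47.3 ± 5.64 RPKM), while Mylk (37.5 ± 1.35) and Tpm2 (37.0 ± 4.39 RPKM) did not differ beyond their spread.

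**Figure D1:**
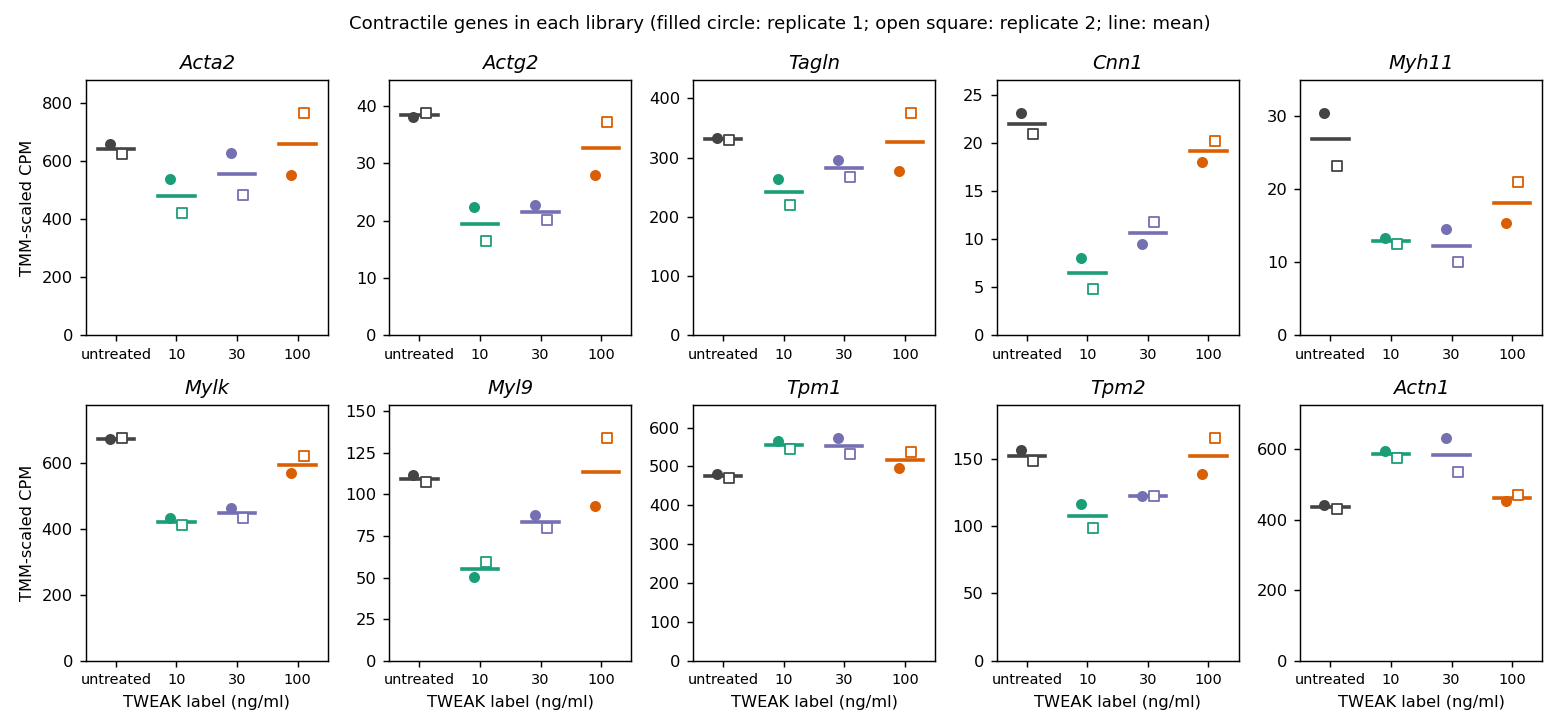
Level of each of the 10 contractile genes in each library, in TMM-scaled CPM (vertical axis from 0), for untreated cells and each labelled dose in ng/ml; circles are replicate 1, squares replicate 2 and lines the mean of 2 libraries. Levels of 8 genes were lower at 10 ng/ml than in untreated cells in both libraries and those of Tpm1 and Actn1 higher, and at 100 ng/ml replicate 2 stood above replicate 1 for all 10.

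At 10 ng/ml, 7 of the 10 genes fell, 2 rose and 1, Acta2, did not pass the test (edgeR quasi-likelihood test, Benjamini-Hochberg adjusted p under 0.05 over all genes tested). Of all 17360 genes, 29.2% were called in this comparison, 14.2% lower and 15.0% higher. The median log2 change of the 10 was -0.59, beside 0.01 over all genes tested. In all 10 the libraries of the 2 groups did not overlap, which held for 65.6% of all genes (2 higher against 33.1%, and 8 lower against 32.5%). In bulk RNA, fewer cells that express a gene and less of its RNA per cell cannot be told apart.

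Of the filament actins, Actg2 fell at 10 ng/ml and Acta2 was not called. Acta2 stood at 659 and 625 CPM in the untreated libraries and at 539 and 422 CPM at 10 ng/ml. Both treated libraries were below both untreated ones, but they also differed from each other, and the log2 change of -0.42 ± 0.18 (SE, 95% interval -0.84 to 0.01) was not called (edgeR adjusted p = 0.132). With only these 2 groups in the fit the same change was called (-0.42, edgeR adjusted p = 0.0455). Actg2, the gamma-actin of visceral smooth muscle, was at 38.1 and 38.8 CPM untreated and 22.5 and 16.5 CPM at 10 ng/ml. It fell by 0.98 ± 0.18 on the log2 scale (edgeR adjusted p = 0.0046), to 0.506 times the untreated level. Both genes are on the minus strand of mm10, Acta2 at chr19:34241090-34255590 and Actg2 at chr6:83512905-83536265. Although actins are near-identical proteins, only 0.326% of the distinct 50-base words of Acta2 transcripts and none of those of Actg2 recurred in transcripts of another gene (GENCODE M21).

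Among the proteins that decorate the thin filament, Cnn1 moved most. Cnn1 encodes calponin, which restrains the actomyosin ATPase. Its levels were 23.2 and 20.98 CPM untreated and 8.09 and 4.89 CPM at 10 ng/ml, a fall of 1.77 ± 0.23 on the log2 scale (edgeR adjusted p = 0.000848), to 0.293 times untreated. The treated libraries lay far below the untreated ones, and no alternative analysis lost the call. Tagln, which encodes the actin-bundling protein transgelin (SM22), was at 333 and 329 CPM untreated and 264 and 220 CPM at 10 ng/ml. Its change of -0.45 ± 0.14 was just called (edgeR adjusted p = 0.048). That call was lost without untreated replicate 1 (0.152), untreated replicate 2 (0.133), TWEAK10 replicate 2 (0.222), TWEAK30 replicate 1 (0.06) or TWEAK30 replicate 2 (0.0597), and with library totals (0.051) or no low-count filter (0.0675). Exons of Pcsk7 and a predicted gene on the opposite strand cover 67.9% of the exon bases of Tagln (chr9:45929619-45936058, minus strand), so its counts are uncertain where strand was not used. Pcsk7 itself stood between 22.8 and 34.6 CPM in the 8 libraries.

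The tropomyosins went in opposite directions. Tropomyosins wind along actin and set which myosins can bind it. Tpm2, the beta-tropomyosin of muscle, was at 156 and 148 CPM untreated and 117 and 98.6 CPM at 10 ng/ml (log2 change -0.50 ± 0.11, edgeR adjusted p = 0.0098). Tpm1, which gives rise to muscle and non-muscle tropomyosins by splicing, was at 479 and 471 CPM untreated and 565 and 545 CPM at 10 ng/ml (log2 change 0.22 ± 0.06, edgeR adjusted p = 0.0297). The groups did not overlap for either gene, yet the rise of Tpm1 was small, and gene counts do not separate its splice forms. Its call was lost without untreated replicate 1 (0.111), untreated replicate 2 (0.142), TWEAK10 replicate 1 (0.146) or TWEAK10 replicate 2 (0.0649), and with no low-count filter (0.0519). That of Tpm2 was lost without untreated replicate 1 (0.0594) or TWEAK10 replicate 2 (0.0576). On mm10, Tpm1 lies at chr9:67022590-67049406 and Tpm2 at chr4:43514711-43523765, both on the minus strand, and Cnn1 at chr9:22099216-22109630 on the plus strand.

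Actn1, the non-muscle alpha-actinin of stress fibres and focal adhesions, rose. It was at 443 and 432 CPM untreated and 596 and 577 CPM at 10 ng/ml, a log2 change of 0.42 ± 0.08 (edgeR adjusted p = 0.00472). The call was kept in every alternative run for this comparison. Actn1 (chr12:80167547-80260371, minus strand) shares 8.15% of its exon bases with predicted genes on the opposite strand.

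All 3 genes of the motor and its switch fell at 10 ng/ml. Myh11, the smooth muscle myosin heavy chain, was at 30.4 and 23.2 CPM untreated and 13.4 and 12.53 CPM at 10 ng/ml (log2 change -1.05 ± 0.22, edgeR adjusted p = 0.00958). Myl9, the regulatory light chain, was at 112 and 107 CPM untreated and 50.3 and 59.6 CPM at 10 ng/ml (log2 change -0.99 ± 0.17, edgeR adjusted p = 0.00288). Each was at about the same fraction of its untreated level, 0.483 times for Myh11 and 0.502 times for Myl9. Mylk, the kinase that phosphorylates this light chain, was at 675 and 676 CPM untreated and 433 and 411 CPM at 10 ng/ml. Its untreated replicates were nearly equal, and the log2 change of -0.68 ± 0.06 had the smallest adjusted p of the 10 (edgeR, 0.000158). The call on Myh11 was lost without untreated replicate 1 (0.0647), which was the higher untreated library, or TWEAK10 replicate 2 (0.0576). Those on Myl9 and Mylk were lost in no alternative. Myh11 lies at chr16:14194535-14291372 on the minus strand, Myl9 at chr2:156775420-156781658 and Mylk at chr16:34745210-35002420 on the plus strand, and 6.85% of the exon bases of Mylk are shared with genes on the opposite strand.

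A compared group that loses 1 of its 2 libraries keeps 1, so fewer calls then say little about the library left out. The count of called genes at 10 ng/ml fell without any 1 untreated, 10 or 30 ng/ml library, and most without 2 of them. It was 5 of 10 without untreated replicate 1 and also 5 without TWEAK10 replicate 2, with Tagln, Tpm1, Tpm2 and Myh11 lost each time. Cnn1, Actg2, Myl9, Mylk and Actn1 kept their calls in every alternative run for this comparison.

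**Figure D2:**
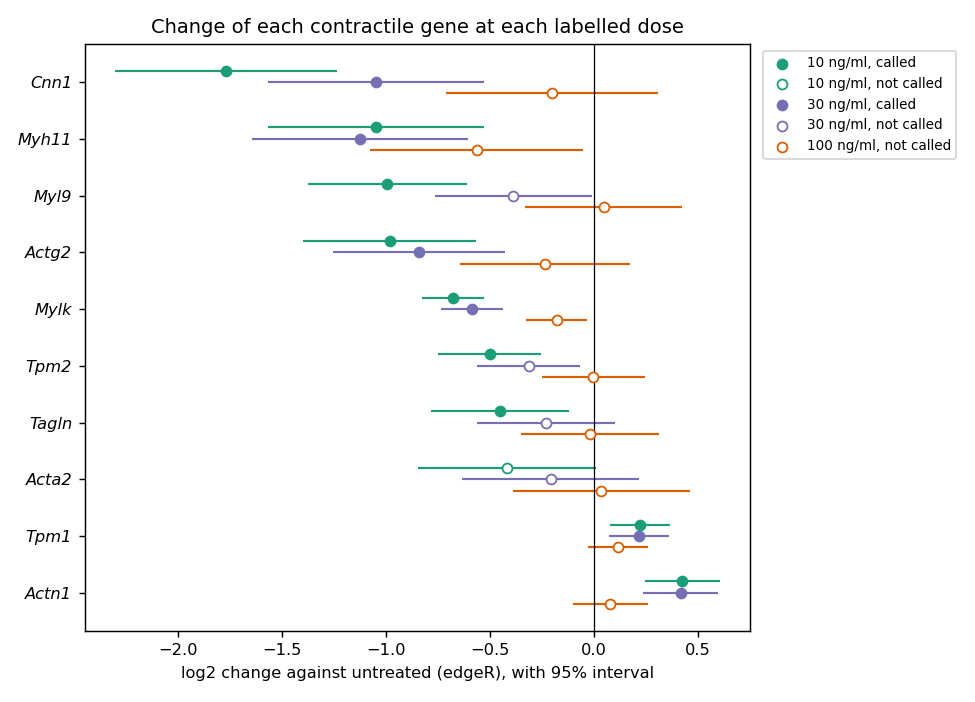
Log2 change of each contractile gene against untreated cells at each labelled dose, with 95% intervals from the edgeR fit; filled points were called (adjusted p under 0.05) and open points were not. Changes at 10 ng/ml ran from -1.77 for Cnn1 to 0.42 for Actn1, and no gene was called at 100 ng/ml.

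At 30 ng/ml, 4 of the 10 genes fell and 2 rose, against 23.3% of all genes called in this comparison, 10.7% lower and 12.6% higher. The median log2 change of the set was -0.35, beside 0.01 over all genes tested. Cnn1 was at 9.56 and 11.8 CPM (log2 change -1.05 ± 0.22, edgeR adjusted p = 0.0118) and Myh11 at 14.5 and 10.0 CPM (-1.13 ± 0.22, edgeR adjusted p = 0.00852). Both were below every untreated library. Actg2, at 22.8 and 20.1 CPM, fell by 0.84 ± 0.18 (edgeR adjusted p = 0.0115), and Mylk, at 465 and 434 CPM, by 0.59 ± 0.06 (edgeR adjusted p = 0.000457), both as log2 changes. Actn1 rose to 631 and 537 CPM (0.42 ± 0.08, edgeR adjusted p = 0.00634) and Tpm1 to 572 and 532 CPM (0.22 ± 0.06, edgeR adjusted p = 0.04). Myl9 (87.7 and 79.6 CPM), Tpm2 (123 and 122 CPM) and Tagln (296 and 267 CPM) were below both untreated libraries without being called (edgeR adjusted p = 0.136, 0.0744 and 0.304). DESeq2 called Myl9 (0.0334) and Tpm2 (0.0219), as did edgeR with only these 2 groups in the fit (0.0183 and 0.0205). Myl9 was called without both libraries labelled 100 ng/ml (0.0331) or without either of them (0.0342 and 0.0359). Acta2 at 628 and 484 CPM overlapped the untreated libraries. The other 9 genes did not overlap, 7 lower and 2 higher, against 63.2% of all genes (30.9% lower and 32.4% higher).

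Calls at 30 ng/ml rested on few libraries. The number called was 2, Mylk and Actn1, without untreated replicate 1, where Actg2 (0.0503), Cnn1 (0.0652), Myh11 (0.0589) and Tpm1 (0.141) were lost. Calls on Actg2 (0.0536) and Tpm1 (0.18) were also lost without untreated replicate 2, those on Cnn1 (0.0781) and Tpm1 (0.209) without TWEAK30 replicate 1, that on Actg2 (0.0676) without TWEAK30 replicate 2 and that on Tpm1 without TWEAK10 replicate 1 (0.0632) or TWEAK10 replicate 2 (0.0563). Tpm1 was also not called by DESeq2 (0.0565) or with no low-count filter (0.072).

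In the libraries labelled 100 ng/ml no gene of the set was called by edgeR, nor by DESeq2 or limma-voom, where 1.12% of all genes were called by edgeR, 0.812% higher and 0.305% lower. At an unadjusted p under 0.05 there were 2, Mylk and Myh11, beside 2017 of all 17360 genes. Mylk was at 569 and 623 CPM (log2 change -0.18 ± 0.06, 95% interval -0.33 to -0.03, edgeR adjusted p = 0.318) and Myh11 at 15.4 and 20.9 CPM (-0.56 ± 0.22, 95% interval -1.08 to -0.05, edgeR adjusted p = 0.372). In both genes the 2 libraries lay under both untreated ones. For Cnn1, at 18.1 and 20.3 CPM, the interval of the log2 change ran from -0.71 to 0.31, and for Actg2, at 28.05 and 37.2 CPM, from -0.65 to 0.17. Acta2 was at 552 and 764 CPM, 1 library below and 1 above both untreated libraries, with an interval of -0.39 to 0.46. The same placement held for Tagln (278 and 375 CPM), Myl9 (92.8 and 134 CPM) and Tpm2 (139 and 165 CPM). These intervals leave room for changes in either direction, so likeness to untreated cells is not shown. Tpm1 stood at 495 and 536 CPM and Actn1 at 452 and 471 CPM. In 6 of the 10 genes the libraries did not overlap with the untreated ones, which held for 44.0% of all genes (4 lower against 22.1%, and 2, Tpm1 and Actn1, higher against 21.9%).

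Replicates of the 100 ng/ml label differed in the same direction throughout the set. All 10 genes were higher in replicate 2, by a median of 0.33 on the log2 scale, from 0.06 for Actn1 to 0.53 for Myl9. Over all genes tested, the middle 50% of replicate differences in this group lay between -0.17 and 0.16. At 10 ng/ml, 9 of the 10 genes were instead lower in replicate 2 (median -0.17), as were 9 at 30 ng/ml (median -0.14) and 8 in untreated cells (median -0.05).

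Doses were compared with each other directly. Between 30 and 10 ng/ml edgeR called no gene of the set and none of all genes (0%), while at an unadjusted p under 0.05 there were 2 of the set, Cnn1 and Myl9, and 1208 of all genes. DESeq2 called 131 genes, Myl9 among them, and limma-voom 0. Myl9 was at 50.3 and 59.6 CPM at 10 ng/ml and 87.7 and 79.6 CPM at 30 ng/ml, a log2 difference of 0.61 ± 0.16 (edgeR adjusted p = 0.516, DESeq2 adjusted p = 0.00699). In 5 of the 10 genes the libraries did not overlap, all higher at 30 ng/ml, against 36.4% of all genes in either direction and 18.5% higher.

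Between 100 and 10 ng/ml, 5 genes were higher at 100 ng/ml and 1 was lower, against 22.0% of all genes called, 10.7% higher and 11.2% lower. All 10 were non-overlapping, 8 higher and 2 lower, against 60.5% of all genes (29.8% higher and 30.8% lower). Cnn1 was higher by 1.57 ± 0.23 (edgeR adjusted p = 0.00226), Myl9 by 1.04 ± 0.17 (0.00325), Actg2 by 0.75 ± 0.18 (0.0216), Tpm2 by 0.50 ± 0.11 (0.0138) and Mylk by 0.50 ± 0.06 (0.00118) on the log2 scale. Actn1 was lower by 0.35 ± 0.08 (edgeR, log2 difference -0.35, adjusted p = 0.0164). Cnn1, Myl9 and Mylk kept this call in every alternative. The number called was 3 without TWEAK10 replicate 2 and 3 without TWEAK100 replicate 2. In both cases Actg2 (0.104 and 0.119), Tpm2 (0.0762 and 0.0775) and Actn1 (0.0505 and 0.0531) were lost, and Actn1 was also lost without TWEAK10 replicate 1 (0.0882) or TWEAK100 replicate 1 (0.0932). Actg2 was also lost with only these 2 groups in the fit (0.0525). Tagln was called, higher at 100 ng/ml, without TWEAK100 replicate 1 (0.0149) and by DESeq2 (0.0049).

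Between 100 and 30 ng/ml, Cnn1 (log2 difference 0.85 ± 0.22, edgeR adjusted p = 0.0406) and Mylk (0.41 ± 0.06, 0.0047) were higher at 100 ng/ml and Actn1 (-0.34 ± 0.08, 0.0234) lower, against 15.2% of all genes called (7.15% higher and 8.04% lower). In 7 genes the libraries did not overlap, 6 higher and 1 lower, against 57.3% of all genes (27.8% higher and 29.5% lower). DESeq2 called 6 of the set, with Actg2 (0.00559), Myl9 (0.0194) and Tpm2 (0.0335) added. Without TWEAK30 replicate 1 or TWEAK100 replicate 2 only Mylk remained called. Cnn1 lost its call without any 1 of the libraries labelled untreated, 30 or 100 ng/ml (0.0658 to 0.207), and with no low-count filter (0.0672). Actn1 lost its call also without TWEAK100 replicate 1 (0.126) and with only these 2 groups in the fit (0.0697). Actg2 was called without TWEAK10 replicate 1 (0.0379), TWEAK10 replicate 2 (0.0402) or TWEAK100 replicate 1 (0.0459), and Myl9 without TWEAK100 replicate 1 (0.0178). All comparisons with untreated cells share the same 2 untreated libraries, and those between doses share treated ones.

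Apart from Mylk, for which no relatives were listed, the contractile genes were set against their protein families, which gives a measure inside each library that needs no scaling. Acta2 and Actg2 together made up 25.8% and 24.8% of all actin counts in untreated cells. The share was 17.1% and 14.4% at 10 ng/ml, 20.4% and 17.9% at 30 ng/ml and 21.4% and 24.6% at 100 ng/ml. It was thus lower in all 6 treated libraries than in either untreated one. The gap was narrow for TWEAK100 replicate 2 (24.56%, against 24.78% in untreated replicate 2). For Acta2 alone the share was 24.41% and 23.33% untreated and 20.41% and 23.42% at 100 ng/ml, so these groups overlapped. Tagln made up 56.8% and 57.8% of transgelin counts untreated, 39.1% and 35.2% at 10 ng/ml, 44.8% and 44.1% at 30 ng/ml and 52.8% and 57.2% at 100 ng/ml. The Cnn1 share of calponin counts was 3.67% and 3.60% untreated, 1.76% and 1.21% at 10 ng/ml, 2.06% and 2.61% at 30 ng/ml and 3.31% and 3.14% at 100 ng/ml. In these 2 families the order of the groups was untreated, 100, 30 and 10 ng/ml, with overlap only between untreated cells and 100 ng/ml for Tagln.

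Myh11 was a minor part of myosin II heavy chains. Its share was 2.02% and 1.59% untreated, 0.645% and 0.626% at 10 ng/ml, 0.742% and 0.511% at 30 ng/ml and 0.982% and 1.282% at 100 ng/ml. The Myl9 share of regulatory light chains was 30.9% and 28.3% untreated, 15.3% and 21.9% at 10 ng/ml, 20.7% and 22.5% at 30 ng/ml and 24.1% and 34.5% at 100 ng/ml. Myl12a, a non-muscle light chain of the same family, was at 207 and 129 CPM in the libraries labelled 100 ng/ml and at 171 and 109 CPM at 10 ng/ml. Tpm2 made up 10.2% and 9.69% of tropomyosin counts untreated and 6.92% and 6.13% at 10 ng/ml. With Tpm1 added, the share was 41.2% and 40.4% untreated and 40.4% and 40.0% at 10 ng/ml. Actn1 made up 59.2% and 60.1% of alpha-actinin counts untreated and 64.4% and 68.9% at 10 ng/ml, and 58.1% and 59.0% at 100 ng/ml. No test was made of the shares, because 2 libraries against 2 allow no permutation p under 0.05.

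**Figure D3:**
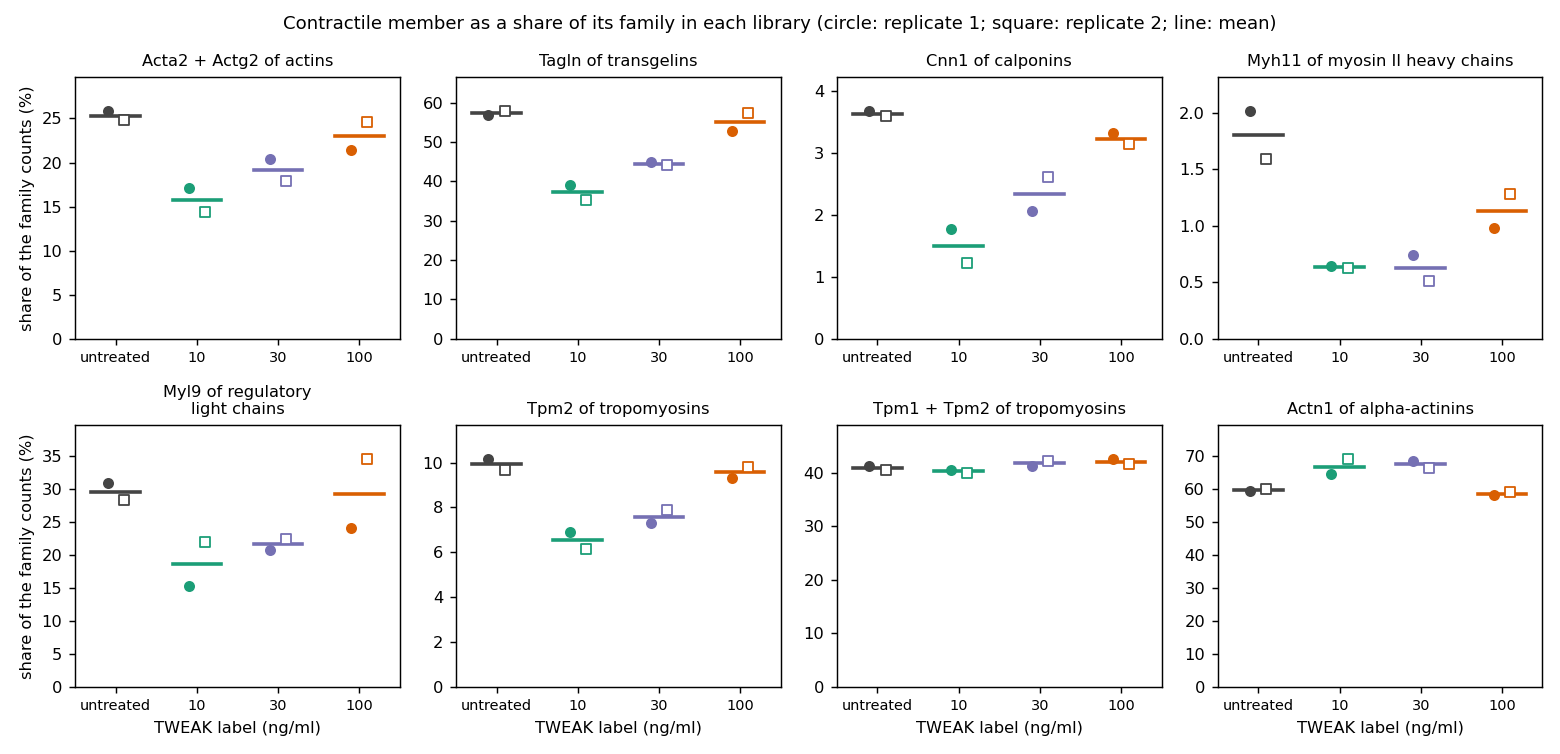
Counts of the contractile gene or genes as a percentage of all counts of the family, per library (circles replicate 1, squares replicate 2, lines the mean of 2 libraries), for untreated cells and each labelled dose in ng/ml; vertical axes start at 0. The smooth muscle actins were 25.8% and 24.8% of actin counts untreated and 17.1% and 14.4% at 10 ng/ml, while the share of Tpm1 with Tpm2 stayed between 40.0% and 42.5% in all libraries.

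The relatives were tested in the same fit. Of 20 relatives 16 could be tested. At 10 ng/ml 5 rose and 5 fell, against 15.0% and 14.2% of all genes, and 6 were not called, with a median log2 change of -0.07, and the number of falls was 3 without untreated replicate 1, untreated replicate 2 or TWEAK10 replicate 2. The cytoplasmic actins rose: Actb from 1197 and 1238 to 1547 and 1587 CPM (log2 change 0.36 ± 0.08, edgeR adjusted p = 0.0102) and Actg1 from 806 and 777 to 1180 and 1022 CPM (0.48 ± 0.09, edgeR adjusted p = 0.00519). Tagln2, the transgelin of non-muscle cells, rose from 253 and 240 to 411 and 403 CPM (0.72 ± 0.07, edgeR adjusted p = 0.000248). Myh9, the non-muscle myosin IIA heavy chain, rose from 1242 and 1197 to 1901 and 1834 CPM (0.61 ± 0.04, edgeR adjusted p = 3.33e-05) and Tpm3, a non-muscle tropomyosin, from 254 and 255 to 373 and 354 CPM (0.51 ± 0.07, edgeR adjusted p = 0.00143). In each of these 5 genes both treated libraries were above both untreated ones. The call on Actb was lost without untreated replicate 1 (0.0699) or TWEAK10 replicate 2 (0.0534).

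Not every relative rose. Myh10, the non-muscle myosin IIB heavy chain, fell from 238 and 238 to 162 and 155 CPM (log2 change -0.59 ± 0.07, edgeR adjusted p = 0.000666). Cnn2 fell from 365 and 336 to 246 and 212 CPM (-0.61 ± 0.12, edgeR adjusted p = 0.00546), and Cnn3 (-0.27 ± 0.08), Myl6 (-0.28 ± 0.08) and Actn3 (-1.05 ± 0.19) were the other falls. All 3 calponins therefore fell, Cnn1 by the largest amount. The calls on Cnn3 and Myl6 were lost without untreated replicate 1 (0.183 and 0.0764), untreated replicate 2 (0.0594 and 0.139) or TWEAK10 replicate 2 (0.16 and 0.142), and that on Cnn3 also with only the groups compared (0.0567). Tpm4 (-0.08 ± 0.08), Actn4 (0.01 ± 0.10), Myl12a (-0.10 ± 0.27), Myl12b (-0.07 ± 0.15), Myl6b (-0.32 ± 0.23) and Tagln3 (0.54 ± 0.85) were not called. Of the sarcomeric relatives, Actn3 was tested but low, at 7.73 and 7.16 CPM untreated and 4.17 and 3.02 CPM at 10 ng/ml. Acta1, Actc1 and Actn2, with Myh14, were under 1 CPM in every library and were not tested. At 30 ng/ml 4 rose (Actg1, Tagln2, Myh9 and Tpm3) and 3 fell (Cnn2, Myh10 and Actn3), against 12.6% and 10.7% of all genes. There were 2 rises without untreated replicate 1 or TWEAK30 replicate 1, and 1 fall without untreated replicate 1. At 100 ng/ml none of the 16 was called by edgeR, DESeq2 or limma-voom, with 3 at an unadjusted p under 0.05.

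**Figure D4:**
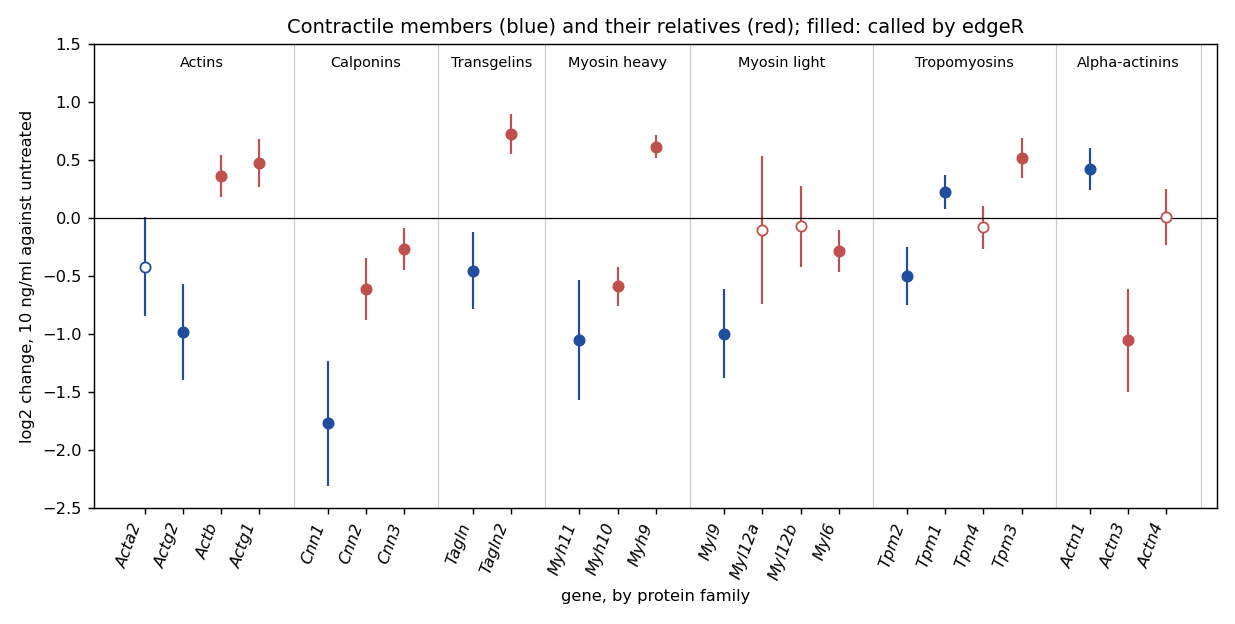
Log2 change at 10 ng/ml against untreated cells for the contractile genes (blue) and their tested relatives (red), grouped by protein family, with 95% intervals from the edgeR fit; filled points were called. In actins, transgelins, myosin heavy chains and tropomyosins at least 1 non-muscle relative rose beside the falls, while all 3 calponins fell. Myl6b and Tagln3, which were not called, are left out.

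Other genes of the contractile machinery moved in both directions. Of 30 such partners 29 were tested, and at 10 ng/ml 8 rose and 13 fell, against 15.0% and 14.2% of all genes, and 8 were not called (median log2 change -0.20). Fhl1, a LIM protein of muscle, fell from 533 and 562 to 108 and 90.8 CPM (-2.46 ± 0.15, edgeR adjusted p = 1.88e-05). Prkg1, the cGMP-dependent kinase that relaxes smooth muscle, fell from 71.6 and 71.8 to 21.8 and 22.5 CPM (-1.70 ± 0.11, edgeR adjusted p = 2.25e-05). Des, the intermediate filament protein desmin of muscle, went the other way, from 35.5 and 27.6 to 119 and 111 CPM (1.86 ± 0.13, edgeR adjusted p = 3.84e-05). Pdlim4, an actin-associated LIM protein, rose from 0.379 and 0.301 to 13.3 and 9.82 CPM (5.07 ± 0.26, edgeR adjusted p = 9.58e-06). Desmin and Cnn1, both used as smooth muscle markers, thus changed in opposite directions. At 30 ng/ml 8 rose and 11 fell, against 12.6% and 10.7% of all genes, with 7 falls without untreated replicate 1 or untreated replicate 2. At 100 ng/ml 1 of the 29, Pdlim4, rose and none fell, against 0.812% and 0.305% of all genes, with 7 at an unadjusted p under 0.05 (2017 of all genes). DESeq2 then called 2 higher and 1 lower and limma-voom none, and without untreated replicate 2 there were 2 rises and without TWEAK30 replicate 1 or TWEAK30 replicate 2 there was 1 fall.

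Among regulators of these genes, SRF itself was not called. Of 19 listed regulators 18 were tested, and at 10 ng/ml 1 rose and 6 fell, against 15.0% and 14.2% of all genes, and 11 were not called (median log2 change -0.20). Srf was at 39.3 and 36.9 CPM untreated and 35.1 and 33.5 CPM at 10 ng/ml (-0.15 ± 0.08, 95% interval -0.34 to 0.04, edgeR adjusted p = 0.221). Myocd had at most 0.0602 CPM in any library. The coactivators Mkl1 and Mkl2 of the same family, named after their values were seen, were expressed. At 10 ng/ml Mkl2 fell from 77.1 and 77.85 to 55.1 and 55.9 CPM (-0.48 ± 0.09, edgeR adjusted p = 0.00536). Mkl1 went from 67.9 and 66.8 to 61.5 and 53.5 CPM and was not called (-0.23 ± 0.08, edgeR adjusted p = 0.0726). Mkl2 was also called lower at 30 ng/ml (edgeR adjusted p = 0.00677), and Mkl1 was not (0.0967). Klf4, a repressor of smooth muscle genes, fell from 180 and 161 to 74.8 and 76.9 CPM (-1.17 ± 0.08, edgeR adjusted p = 2.52e-05). Tcf21, a transcription factor of lung fibroblasts, fell from 44.1 and 41.5 to 9.03 and 5.82 CPM (-2.53 ± 0.20, edgeR adjusted p = 5.71e-05) and Fhl2, an SRF cofactor that is also on the partner list, from 48.3 and 46.4 to 26.6 and 23.0 CPM (-0.93 ± 0.11, edgeR adjusted p = 0.000489). Elk3, a ternary complex factor that competes with myocardin-type coactivators for SRF, rose from 99.4 and 94.2 to 176 and 174 CPM (0.85 ± 0.09, edgeR adjusted p = 0.000324). At 30 ng/ml 1 rose and 5 fell, against 12.6% and 10.7% of all genes. At 100 ng/ml edgeR and limma-voom called none, DESeq2 1, and 3 had an unadjusted edgeR p under 0.05.

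TGF-beta, the main inducer of the myofibroblast state, showed a rise of 1 ligand beside falls of the other ligands and of receptors. Of 23 genes 22 were tested, and at 10 ng/ml 4 rose and 11 fell, against 15.0% and 14.2% of all genes (median log2 change -0.42). Tgfb1 rose from 50.4 and 49.7 to 140 and 133 CPM at 10 ng/ml (1.45 ± 0.07, edgeR adjusted p = 6.89e-06), and stood at 100.3 and 104 CPM at 30 ng/ml and 58.7 and 56.2 CPM at 100 ng/ml. The other two ligands, named after their values were seen, fell at 10 ng/ml, Tgfb2 from 15.0 and 17.6 to 9.53 and 10.6 CPM (-0.69 ± 0.13, edgeR adjusted p = 0.00463) and Tgfb3 from 136 and 124 to 64.9 and 67.3 CPM (-0.97 ± 0.09, edgeR adjusted p = 0.000128). The receptor genes Tgfbr1 (-0.68 ± 0.10), Tgfbr2 and Tgfbr3 (-1.21 ± 0.09) all fell. Tgfbr2, the type II receptor, fell from 868 and 827 to 330 and 318 CPM (edgeR adjusted p = 1.64e-05). Thbs1, an activator of latent TGF-beta, fell from 955 and 943 to 512 and 527 CPM (-0.87 ± 0.05, edgeR adjusted p = 1.46e-05), and Nox4, an oxidase induced by TGF-beta, from 57.4 and 60.2 to 12.2 and 13.3 CPM (edgeR adjusted p = 1.09e-05). Tgfb1 and Tgfbr2 transcripts thus moved in opposite directions in the same libraries. At 30 ng/ml 4 of the 22 rose and 10 fell, against 12.6% and 10.7% of all genes. At 100 ng/ml edgeR called none, with 5 at an unadjusted p under 0.05, while DESeq2 called 2 higher and 2 lower and limma-voom 1 lower.

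Most matrix genes of the myofibroblast fell. Of 18 matrix and surface genes 2 rose and 15 fell at 10 ng/ml, against 15.0% and 14.2% of all genes, and 1 was not called (median log2 change -0.92, beside -0.59 for the contractile set). Cthrc1, a marker of matrix-producing fibroblasts in fibrotic lung, fell from 10.3 and 10.7 to 0.935 and 0.678 CPM (-3.71 ± 0.22, edgeR adjusted p = 1.5e-05). Col3a1 was at 8952 and 8867 CPM untreated and 1935 and 1885 CPM at 10 ng/ml (-2.22 ± 0.13, edgeR adjusted p = 1.54e-05). Lox, which crosslinks collagen, fell from 455 and 468 to 111 and 106 CPM (-2.09 ± 0.12, edgeR adjusted p = 1.5e-05), and Loxl2 was at 336 and 329 CPM untreated and 125 and 112 CPM at 10 ng/ml. The difference between these lists was not tested. The 2 rises at 10 ng/ml, named after their values were seen, were Eln and Cdh11. Eln rose from 101 and 104 to 180 and 166 CPM (0.76 ± 0.08, edgeR adjusted p = 0.000366). Cdh11 rose from 235 and 239 to 598 and 656 CPM (1.40 ± 0.10, edgeR adjusted p = 3.12e-05). At 30 ng/ml 15 fell and the same 2 rose, against 10.7% and 12.6% of all genes. At 100 ng/ml edgeR called 1 of the 18 lower, Cthrc1 (-1.08, edgeR adjusted p = 0.0427), against 0.305% of all genes, and DESeq2 5. None was called lower without untreated replicate 1, untreated replicate 2 or TWEAK100 replicate 1, nor with no low-count filter. With only the groups compared 3 were called lower.

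Marker lists of other cells moved with treatment to varying degrees. The summed level of 9 mesothelial markers was 23.5 and 22.8 CPM untreated, 9.67 and 7.46 CPM at 10 ng/ml, 7.002 and 8.31 CPM at 30 ng/ml and 15.8 and 18.9 CPM at 100 ng/ml, with Msln, Krt8 and Krt19 under 1 CPM in all. The summed 10 smooth muscle markers were 327 and 321 CPM untreated, 340 and 319 CPM at 10 ng/ml, 354 and 329 CPM at 30 ng/ml and 279 and 309 CPM at 100 ng/ml. Within that list Des, Synpo2 and Hhip rose at 10 ng/ml and Lmod1, Ppp1r14a and Npnt fell. The summed 10 pericyte markers were 77.4 and 76.2 CPM untreated, 71.5 and 60.1 CPM at 10 ng/ml, 69.4 and 77.1 CPM at 30 ng/ml and 91.3 and 78.7 CPM at 100 ng/ml, with Cox4i2, Higd1b and Trpc6 under 1 CPM in all. That sum hides opposite changes, since at 10 ng/ml 3 pericyte markers were called higher and 2 lower. Rgs5 (log2 change 3.11), Cspg4 (1.81) and Ndufa4l2 (1.32) rose, while Abcc9 (-1.57) and Kcnj8 (-1.09) fell. Skeletal and cardiac muscle markers summed to at most 5.56 CPM.

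Immune, epithelial and endothelial lists were lower in level. The summed 8 immune markers were 31.4 and 28.1 CPM untreated, 60.3 and 70.1 CPM at 10 ng/ml, 65.6 and 52.6 CPM at 30 ng/ml and 44.5 and 46.8 CPM at 100 ng/ml. Of these Cd68 (from 2.02 and 2.11 to 8.57 and 9.09 CPM) and Cd14 (from 17.9 and 17.7 to 38.7 and 44.3 CPM) rose at 10 ng/ml, while the pan-leukocyte gene Ptprc and 4 others stayed under 1 CPM in all libraries. The summed 8 epithelial markers were 0.999 and 1.26 CPM untreated, 4.91 and 5.49 CPM at 10 ng/ml, 7.29 and 4.65 CPM at 30 ng/ml and 2.11 and 2.23 CPM at 100 ng/ml. Ager rose at 10 ng/ml, and Epcam and Nkx2-1 had no count in any library. The summed 8 endothelial markers ran from 5.83 to 7.69 CPM, with Cdh5 higher (from 0.180 and 0.120 to 4.27 and 3.81 CPM) and Tek lower at 10 ng/ml, and with Pecam1 under 1 CPM in all. The summed 10 fibroblast markers were 21671 and 21361 CPM untreated, 11272 and 11149 CPM at 10 ng/ml, 12002 and 13245 CPM at 30 ng/ml and 18966 and 19994 CPM at 100 ng/ml. Most of that sum was Col1a1, Col1a2 and Col3a1, and at 10 ng/ml 7 of the 10 fell while Pdgfra, Dcn and Vim rose. The part of these markers in the changes of the contractile genes was not tested.

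The genes most like Acta2 and Cnn1 were ranked by the root mean square difference of log2 CPM, each gene relative to its untreated mean, over the 8 libraries, among 10525 genes averaging 5 CPM or more. For Acta2 they were Zbtb8a (0.07), Tagln (0.07), Chd1l (0.12), Rida (0.12) and Rasgrp3 (0.12). Tagln was the only other gene of the contractile set among them, at a mean of 331 CPM untreated, 242 CPM at 10 ng/ml, 282 CPM at 30 ng/ml and 327 CPM at 100 ng/ml. For Cnn1 they were Pdlim2 (0.15), Cdkn2c (0.17), Pltp (0.18), Masp1 (0.18) and Lrrn4cl (0.18). Pdlim2, which encodes an actin-associated LIM protein, had means of 150 CPM untreated, 49.4 CPM at 10 ng/ml, 65.0 CPM at 30 ng/ml and 139 CPM at 100 ng/ml. None of the other 8 contractile genes was among the 5 nearest to Cnn1.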

How the data were processed

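The authors deposited 1 table of raw counts per gene symbol for 8 libraries. Per the submitters' processing notes, mm10, STAR and StringTie were used, with versions, roles, annotation and strand setting not given in the sources used here. The 3225 rows without a symbol (0.168% to 0.178% of counts) were left out. Genes were tested with edgeR 4.0.16 (R 4.3.3; filterByExpr, TMM, quasi-likelihood F test) in 1 fit of 4 group means, with 4 residual and 3.77 prior degrees of freedom, over 6 comparisons. P-values were two-sided and Benjamini-Hochberg adjusted over 17360 genes. SEs and 95% intervals derive from the change, its F statistic and 7.77 degrees of freedom. At this depth 3 counts equal 0.0599 to 0.0801 CPM. Replicates differed beyond counting noise (chi-square per degree of freedom 22.7 to 27.6). Alternatives were DESeq2 1.42.0, limma-voom (limma 3.58.1), other scalings and filters, only the groups compared, a replicate block and leaving out libraries. Leaving out both libraries labelled 100 ng/ml was chosen after seeing the data. In data simulated for the 10 ng/ml comparison, the fit called 15.6% of 1.5-fold, 53.2% of 2-fold and 73.1% of 4-fold changes. It called 0.0837% of the unchanged genes. A gene that was not called may therefore still have changed.

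The members and lists were chosen with earlier results of these data known. Named were all members and relatives, the 4 called genes of each list with the smallest p at 10 ng/ml, and Srf, Myocd, Tgfb1 and Tgfbr2. Lists held Ccn1 and Ccn2 under their older symbols Cyr61 and Ctgf, and likewise the coactivators Mkl1 and Mkl2. Positions, exon lengths and transcripts came from GENCODE M21 (mm10), promoters from RefSeq.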

Additional observations from a re-analysis of the deposited data

How the results depend on the processing

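Leaving out 1 library at a time gave 5 to 9 called contractile genes at 10 ng/ml (9 in all libraries), 2 to 7 at 30 ng/ml (6), 0 to 0 at 100 ng/ml (0), 0 to 0 between 30 and 10 ng/ml (0), 3 to 6 between 100 and 10 ng/ml (6) and 1 to 4 between 100 and 30 ng/ml (3). DESeq2 called 1 between 30 and 10 ng/ml and 6 between 100 and 30 ng/ml. Replicate numbers shared by the groups did not pair the libraries (correlations of replicate differences -0.046 to 0.028 over 17360 genes). With the replicate block the counts were 7, 5, 0, 0, 6 and 2 in the same order. The block lost the calls on Tagln (edgeR adjusted p = 0.0731) and Tpm1 (0.051) at 10 ng/ml, Tpm1 at 30 ng/ml (0.0674) and Cnn1 between 100 and 30 ng/ml (0.0637), and changed no other call of a contractile gene. It also left no matrix gene called lower at 100 ng/ml. Over all genes, the called number at 100 ng/ml was 194 in all libraries, 568 by DESeq2 and 91 to 125 without 1 untreated or 100 ng/ml library. The 4041 at 30 ng/ml became 2540, 2661 and 2622 without untreated replicate 1, untreated replicate 2 or TWEAK30 replicate 1. Between 30 and 10 ng/ml 0 became 131 by DESeq2, 5 with only the groups compared, 3 without both 100 ng/ml libraries and 3 to 62 with 1 library left out. Between 100 and 10 ng/ml 3816 became 2524 without TWEAK10 replicate 1 and 2406 without TWEAK100 replicate 1. Between 100 and 30 ng/ml 2637 became 1380, 1567 and 1631 without TWEAK30 replicate 1, TWEAK100 replicate 1 or TWEAK100 replicate 2. The directions that turned belonged to changes that were not called, and the cause was not tested. At 10 ng/ml Actn4 (0.01) was at -2e-04 by DESeq2, limma-voom or no low-count filter and -0.1762 to 0.1696 with 1 library left out, Tagln3 at -1.0897 to 1.2664 and Myl12a at -0.4653 to 0.181. At 100 ng/ml Tpm2 (-0.003) was at 0.0156 with library totals, 0.0025 with a mean of at least 1 CPM and -0.1357 to 0.1165 with 1 library left out. Leaving out 1 library there gave -0.2195 to 0.2515 for Acta2, -0.253 to 0.1803 for Tagln and -0.2412 to 0.287 for Myl9. Between 30 and 10 ng/ml it gave -0.0665 to 0.3823 for Actg2, -0.3679 to 0.1648 for Myh11, -0.0591 to 0.0456 for Tpm1 and -0.1284 to 0.1064 for Actn1, and between 100 and 30 ng/ml -0.0112 to 0.4595 for Acta2 and -0.0202 to 0.4129 for Tagln. With 2 libraries a group, the precision is set by their spread rather than by counting.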

Other observations

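Cald1, which encodes the actin- and myosin-binding protein caldesmon, was at 782 CPM in untreated replicate 1 and 1495 CPM in untreated replicate 2, while the 6 treated libraries lay between 1320 and 1526 CPM. Its log2 change at 10 ng/ml (0.31, 95% interval -0.26 to 0.88) was not called (edgeR adjusted p = 0.391). Cald1 was singled out after its values were seen.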
